A study of Argopecten irradians irradians with 6 samples.

Results

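The microRNA miR-34 was followed in the shell-closing (adductor) muscle of a bay scallop, Argopecten irradians irradians. The 6 small-RNA libraries came from the orange muscle of QN Orange scallops (genotype orange, 3 libraries) and from white muscle of the Bohai Red strain (genotype white, 3 libraries). Each library pooled 3 muscles, out of 9 per strain according to the labels, so strain and muscle colour cannot be told apart and the spread within a group is a spread between pools. The labels give no age, sex or treatment, and the series title names carotenoid accumulation in the orange muscle as its subject. The members were all rows of the count table whose name, after the species prefix, has the family number 34, with any letter, copy or arm suffix. They were 44 of 5446 rows, and merging rows with identical counts in all 6 libraries left 21 distinct count profiles of 1005. The table names its libraries by a letter and a number. B was taken as Bohai Red and G as QN Orange, the 6 columns of the count table, which the files did not settle. If the letters were exchanged, each difference would keep its size and turn its direction. The deposited TPM table also has columns named BHR, BH and M, of which BHR and BH could be read as Bohai Red too. If B stood for another group, the sizes given here would not be those of orange against Bohai Red muscle.

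MicroRNAs are short RNAs that guide a silencing complex to messenger RNAs, mainly through the seed near their 5′ end. miR-34 is conserved across bilaterian animals. In vertebrates it is induced by the tumour suppressor p53 and, together with the related miR-449, is abundant in multiciliated cells, while in Drosophila it has been tied to ageing of the nervous system. In Drosophila its gene lies close to those of miR-277 and miR-317. Its role in scallop muscle is not given in the sources used here.

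The 44 names fell into a high and a low set. The high set held 13 profiles under 33 names, each with 3314 to 3610 counts over the 6 libraries, and the low set held 8 profiles under 11 names, each with at most 511. The profile with the most counts was hme-miR-34, named from the butterfly Heliconius melpomene. It had 752, 366 and 951 counts in orange libraries 1 to 3, against 645, 467 and 429 counts in white libraries 1 to 3. Raw counts of the groups overlapped, and orange library 2, the lowest, was also the smallest library of the series.

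The other names of the high set repeated nearly the same values. The most widely shared profile stood under 17 names, among them bmo-miR-34-5p from the silkworm Bombyx mori, with 687, 344 and 886 counts in orange libraries 1 to 3 and 584, 436 and 383 in white libraries 1 to 3. Within the high set the counts of a single library ranged from 880 to 951 in orange library 3 and from 383 to 429 in white library 3. The sum over all 44 names was 30.1 to 31.6 times the top name in the 6 libraries, so values per library are given for the top name.

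Names from lophotrochozoans, the animals among which molluscs fall, differed in their counts. cte-miR-34, from the annelid Capitella teleta, was in the high set with 687, 344 and 881 counts in orange libraries and 586, 434 and 383 in white libraries. lgi-miR-34, from the limpet Lottia gigantea, a mollusc, had 6, 3 and 3 counts in orange libraries and 3, 6 and 2 in white libraries. Of the low set, hpo-miR-34-5p was the most abundant, with 110, 62 and 135 counts in orange libraries and 86, 69 and 49 in white libraries. The profile shared by 3 Caenorhabditis names (cbr-miR-34, cel-miR-34-5p and crm-miR-34) had 22, 12 and 27 counts in orange libraries against 14, 10 and 5 in white libraries. The remaining 5 profiles, under 6 names, had at most 4 counts each over all libraries.

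**Figure D1:**
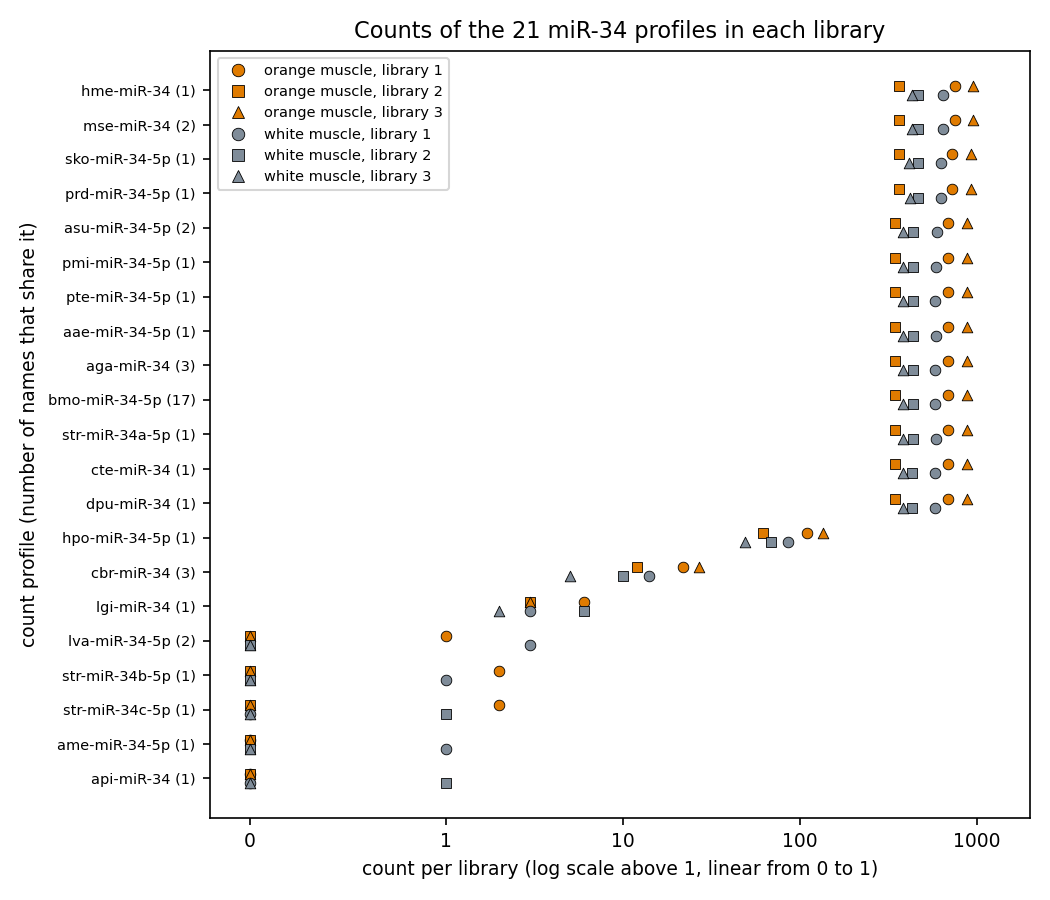
Counts of the 21 miR-34 profiles (rows, with the number of names that share each profile) in the 3 orange and 3 white libraries, on an axis that is logarithmic above 1 count. The 13 profiles of the high set lie on top of each other between 344 and 951 counts, and hpo-miR-34-5p, at 49 to 135 counts, stands next.

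The rows give the arm of the hairpin only in part. Of the 44 names, 22 ended in 5p, 22 gave no arm and 0 ended in 3p. Names with 5p and names without an arm stood together in 4 profiles of the high set and 2 of the low set, with identical counts in every library. A ratio of the arms could not be computed. Letters occurred in 3 names only, all with the prefix str: str-miR-34a-5p lay in the high set with 3319 counts over all libraries, while str-miR-34b-5p and str-miR-34c-5p had 3 counts each.

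The level of miR-34 was taken from 1 row per family. With 1 row per family, the name with the most counts, the 6 libraries held 2092825 to 4001516 counts. As counts per 1000000 of that total (CPM), miR-34 stood at 200.1 in orange library 1 (exact 95% binomial interval 186.01 to 214.9), 175 in orange library 2 (157 to 194) and 257 in orange library 3 (241 to 274). It stood at 161 in white library 1 (149 to 174), 137 in white library 2 (125 to 149.8) and 135 in white library 3 (123 to 149). The 3 orange libraries lay above the 3 white ones, with orange library 2 closest to white library 1 and their intervals overlapping. These intervals cover counting error only.

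Among the 244 to 343 families with counts in a library, miR-34 ranked 39th to 46th in orange and 42nd to 49th in white muscle. By mean level over the 6 libraries, scaled by TMM (edgeR's trimmed mean factors between libraries), it was number 44 of 142 tested families at 181 ± 59.0 CPM (SD, n = 6 libraries). Its neighbours in that order were miR-750 at 209 ± 137 CPM and the predicted miRNA Contig220_8449 at 155 ± 82.7 CPM. The ranges of all 3 overlapped. For comparison, the muscle miRNA miR-133 was at 538671 to 830893 counts in orange and 883213 to 987656 counts in white libraries, under its most abundant name.

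The series title ties the comparison of orange with white muscle to carotenoid accumulation. miR-34 was at 178, 227 and 274 TMM-scaled CPM in orange libraries 1 to 3, and at 128, 149 and 128 CPM in white libraries 1 to 3. The groups did not overlap, which held for 20.4% of the 142 tested families in the same direction. Orange muscle averaged 226 ± 48.1 CPM and white muscle 135 ± 12.5 CPM (SD, n = 3 each). The fitted log2 difference, orange minus white, was 0.74 (SE 0.453), a 1.68-fold difference, and it did not pass the threshold of 0.05 (adjusted p = 0.307, edgeR's quasi-likelihood test with Benjamini-Hochberg adjustment over 142 families). In that fit 9.15% of the families passed, with 7 (4.93%) higher and 6 (4.23%) lower in orange muscle, and miR-34 was number 65 by p. The count of families past the threshold was 0 of 157 without white replicate 2 and 0 of 166 without white replicate 3. At an unadjusted p under 0.05 there were 29 and 34 of these families (edgeR). In bulk muscle, fewer cells of a type and less RNA per cell cannot be told apart.

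The size of the difference moved with the scaling between libraries, together with all families. The 142 families had a median log2 difference of 0.20 with TMM, -0.07 with DESeq2 size factors and -0.01 with library totals. The log2 difference of miR-34 was 0.74, 0.47 and 0.54 under these scalings, or 0.54, 0.53 and 0.56 relative to the median family. The 3 orange libraries were above the 3 white ones under each of these 3 scalings, among them by the least margin with size factors. There they were at 546, 631 and 906 scaled counts in orange libraries against 465, 506 and 535 in white libraries. In each of these fits miR-34 missed the threshold (adjusted p = 0.307, 0.518 and 0.342). Relative to the median, it was 0.99 when orange replicate 1 was left out and 0.15 when white replicate 1 was left out. By the deposited TPM, which divides by a total over all names, the groups nearly met. There miR-34 was at 4.27 in orange library 2 and 4.24 in white library 1.

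**Figure D2:**
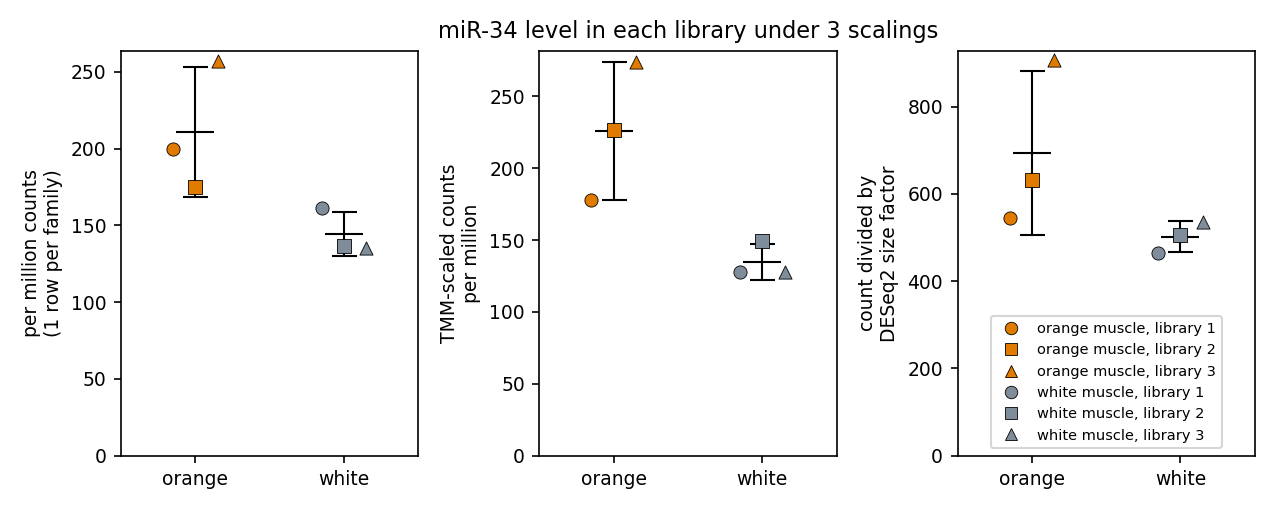
Level of miR-34 in each library, as CPM of the total with 1 row per family, as TMM-scaled CPM and as counts divided by DESeq2 size factors. Points are libraries, and bars give the mean and SD of 3 libraries. Orange libraries lie above white ones in each panel, and orange library 3 is the highest throughout.

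**Figure D3:**
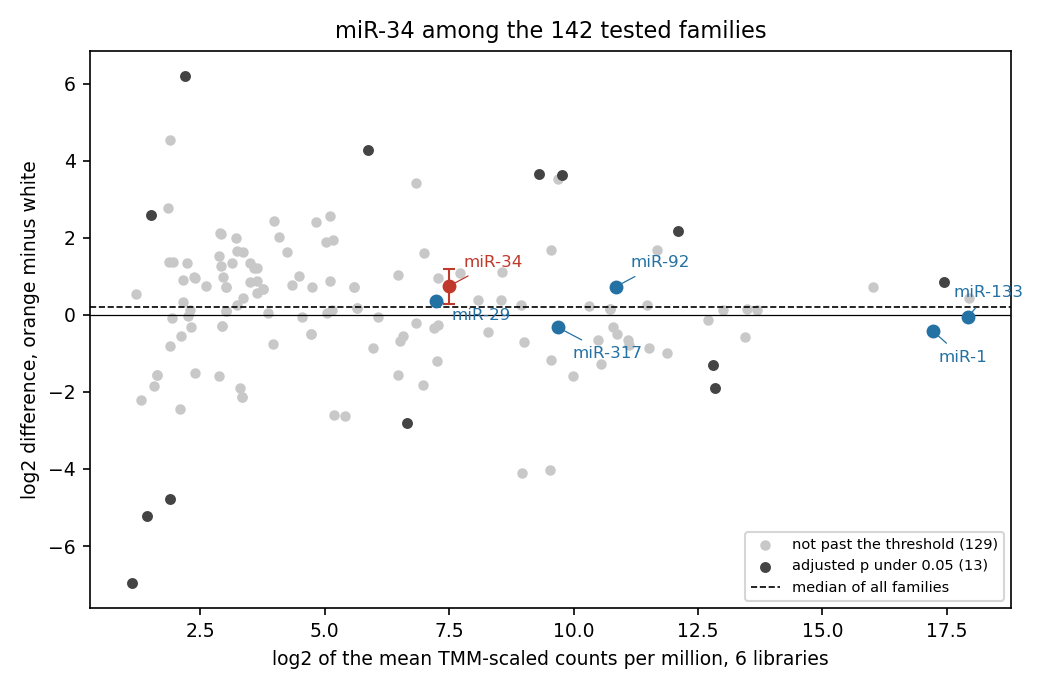
Log2 difference, orange minus white, against the log2 mean level of the 142 tested families. miR-34 (with its SE) lies at 0.74, above the median of 0.20 (dashed line) and among the 129 families that did not pass the threshold.

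The single profiles were also fitted, on all distinct profiles of the table. Of the 21 miR-34 profiles, 15 passed the filter on low counts and 6 did not, and 0 of the 15 passed the threshold (adjusted p = 0.336 to 0.745, edgeR). In that fit 0.621% of the 644 tested profiles passed. Of the 15, 13 belonged to the high set and repeated nearly the same counts, so they are not separate results. At an unadjusted p under 0.05 (edgeR) there were 0 of the 15, and DESeq2 also called 0, with an adjusted p of 0.629 for the top profile. The shares of all profiles for these last settings were not computed, so nothing is read from these counts. The log2 difference of the top profile hme-miR-34 was 0.16 (SE 0.331), that of hpo-miR-34-5p was 0.37 (SE 0.428) and that of the Caenorhabditis profile was 0.84 (SE 0.484). The median profile of the table lay at -0.41 in this fit, so relative to it these were 0.57, 0.78 and 1.26. For the top profile this value was 0.35 when orange replicate 3 was left out and 0.25 when white replicate 1 was left out. Profiles of abundant families are repeated many times in this table, and adjusted p-values over them lack their nominal meaning.

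A ratio of 2 miRNAs counted in the same library does not depend on scaling. For each 100 counts of miR-317 there were 29.0, 26.2 and 38.9 counts of miR-34 in orange libraries 1 to 3, and 14.8, 15.7 and 14.0 in white libraries 1 to 3. The 3 orange libraries lay well above the 3 white ones, and the white ones were close together. The log2 ratio averaged -1.70 ± 0.30 in orange libraries and -2.76 ± 0.08 in white libraries (SD, n = 3 each), which differ by 1.06, or 2.09-fold. A two-sided exact permutation test gave p = 0.1, which 3 against 3 libraries cannot go below (adjusted p = 0.15 over 6 within-library measures). Of 124 families with counts in every library, 30.6% likewise had a ratio to miR-317 that was higher in all orange than in all white libraries. The median family's ratio to miR-317 differed by 0.70, and 41 families had a larger difference than miR-34.

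miR-317 itself, a neighbour of miR-34 in the Drosophila genome, had 2597, 1399 and 2446 counts in orange libraries and 4347, 2980 and 3075 counts in white libraries under its most abundant name. Its log2 difference was -0.32 (SE 0.362, adjusted p = 0.566, edgeR). It fell by the DESeq2 test (log2 difference -0.62, adjusted p = 0.0320). It was the 1 tested member of the list of cluster and seed relatives, of which 0 of 1 passed by edgeR, also at an unadjusted p under 0.05, against 26.8% of all families at that unadjusted p. DESeq2 called 24.8% of the 133 families to which it gave an adjusted p. miR-277 had 1 count in orange library 3 and 1 in white library 1 and none elsewhere, and for miR-449 there was no row.

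Against the muscle miRNAs the ratio was also higher in each orange library. The log2 ratio of miR-34 to miR-1 was -9.09, -9.69 and -8.63 in orange libraries 1 to 3, and -10.24, -10.43 and -10.36 in white libraries 1 to 3. Orange libraries averaged -9.14 ± 0.53 and white libraries -10.34 ± 0.09 (SD, n = 3 each), which differ by 1.21. Against miR-133 the log2 ratio averaged -10.07 ± 0.48 in orange libraries and -10.86 ± 0.24 in white libraries, which differ by 0.79. The groups did not overlap in either ratio, with p = 0.1 for both in the two-sided exact permutation test (adjusted p = 0.15). The ratio of miR-34 to another family was higher in all orange than in all white libraries for 30.6% of 124 families. How many families would separate the groups likewise in their own ratio to miR-1 or to miR-133 was not computed. For miR-133 the gap between the groups was narrow, at -10.52 in orange library 2 and -10.58 in white library 1. Both muscle miRNAs had log2 differences below the median family, at -0.43 (SE 0.281) for miR-1 and -0.05 (SE 0.267) for miR-133, and neither passed the threshold (adjusted p = 0.347 and 0.921, edgeR).

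**Figure D4:**
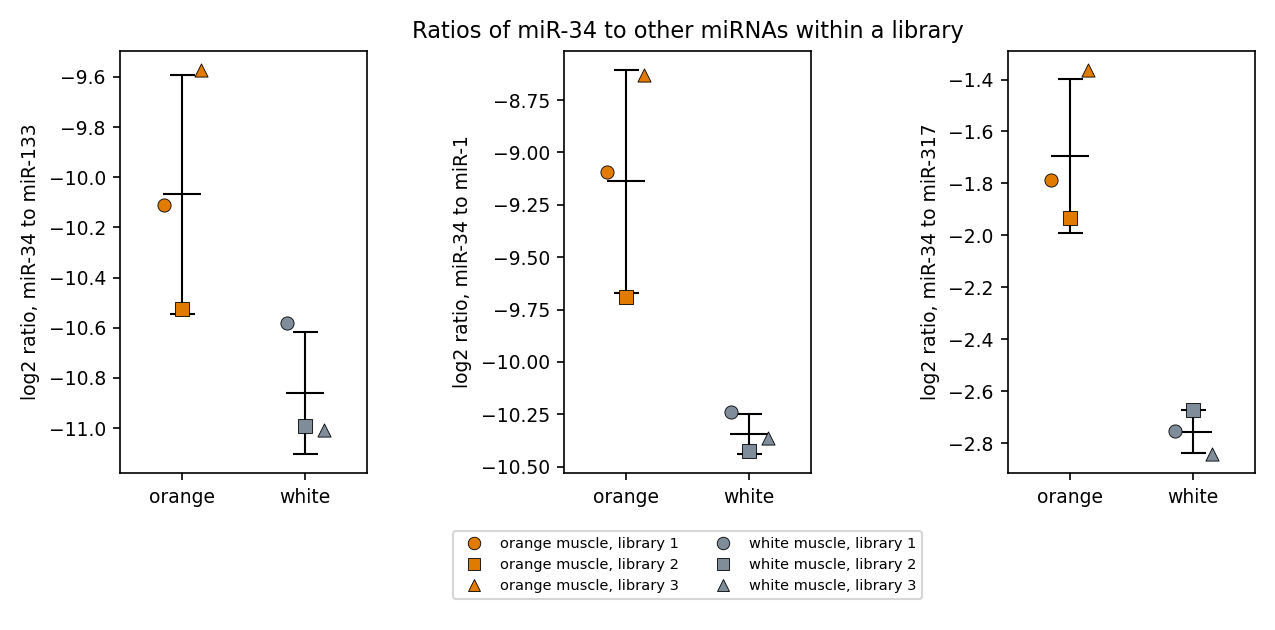
Log2 ratio of the miR-34 count to that of miR-133, miR-1 and miR-317 in each library, with the mean and SD of 3 libraries. Orange libraries lie above white ones in all 3 panels, and the white libraries are tightest in the ratio to miR-317, at -2.84 to -2.67.

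The counts of 3 name variants were set against the top name in each library. The bmo-miR-34-5p profile held 92.8% ± 1.35 of the hme-miR-34 count in orange libraries and 91.1% ± 2.09 in white libraries (SD, n = 3 each), and the groups overlapped (exact permutation p = 0.3, adjusted 0.3). The hpo-miR-34-5p count was 14.6%, 16.9% and 14.2% of the top name in orange libraries, against 13.3%, 14.8% and 11.4% in white libraries, which also overlapped (exact permutation p = 0.3, adjusted 0.3). The Caenorhabditis profile stood at 2.93%, 3.28% and 2.84% in orange libraries, against 2.17%, 2.14% and 1.17% in white libraries. The groups did not overlap in this last share (exact permutation p = 0.1, adjusted 0.15). It rests on 5 to 27 counts per library, and the Wilson 95% interval of orange library 3, 1.96% to 4.10%, overlapped that of white library 1, 1.30% to 3.61%. Such intervals take the reads of a variant as a part of those of the top name, which was not shown. Another name, sko-miR-34-5p, had 468 counts in white library 2 against 467 of the top name. These 3 shares were chosen after their values were seen.

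**Figure D5:**
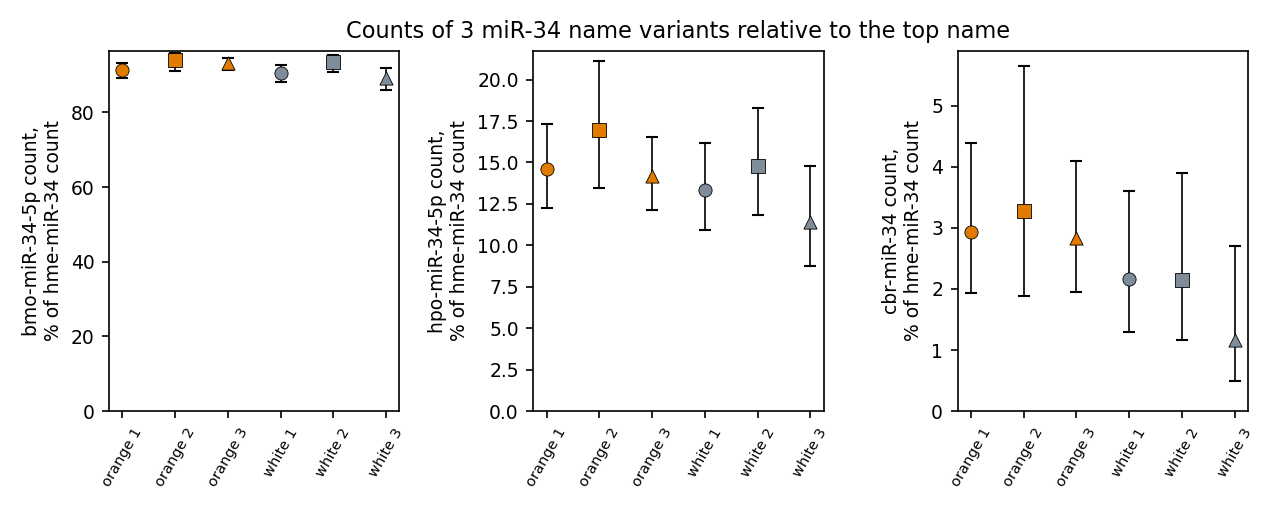
Counts of the bmo-miR-34-5p, hpo-miR-34-5p and cbr-miR-34 profiles as a percentage of the hme-miR-34 count in each library. Bars are Wilson 95% binomial intervals, which take each count as a part of the hme-miR-34 count. The first profile lies at 89.3% to 94.0%, the second at 11.4% to 16.9% and the third at 1.17% to 3.28%.

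The families whose level varied most like that of miR-34 were named by Pearson's correlation of log2 CPM over the 6 libraries. The 5 highest were the predicted Contig179_7833 (r = 0.97) and Contig118_4651 (r = 0.96), miR-281 (r = 0.95), miR-4758 (r = 0.94) and miR-46 (r = 0.94). The counts of miR-46 (2116, 1643 and 6985 in orange libraries, 163, 332 and 471 in white libraries) followed those of miR-281 (2816, 2255 and 9685, and 238, 488 and 641). Without sequences it cannot be told whether miR-281 and miR-46 count the same reads. The 6 points share the split into groups and the scaling of each library, and all 5 families had a far larger difference between the groups than miR-34, at log2 differences of 2.16 to 4.29. The rank of miR-4758 rests on few counts, 11, 10 and 21 in orange libraries against 4, 2 and 3 in white libraries, and the family passed the filter on low counts through the orange group. miR-281, for example, was at 666, 1397 and 2790 TMM-scaled CPM in orange libraries 1 to 3 against 47.1, 156 and 191 CPM in white libraries 1 to 3. With TMM scaling it was, like miR-34, highest in orange library 3 and lowest of the orange libraries in library 1. With library totals the lowest orange library for miR-34 was library 2. The 3 lowest correlations were those of miR-2001, Contig419_16002 and Contig436_17138 (r = -0.92 each). Contig419_16002 had 1, 1 and 0 counts in orange libraries against 47, 12 and 28 in white libraries. miR-2001 had 15, 4 and 7 counts in orange libraries against 57, 20 and 19 in white libraries. Both passed the filter on low counts through the white group, so their ranks rest on few counts in orange libraries. miR-2001 was at 3.55, 2.48 and 2.02 TMM-scaled CPM in orange libraries against 11.3, 6.40 and 5.66 CPM in white libraries.

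miRNAs of other cell types were looked at because pooled muscle can hold other tissue, and their CPM are TMM-scaled. Of the ciliated-cell list (miR-34, miR-449, miR-29 and miR-92), 3 of 4 had counts and 0 of 3 tested passed by edgeR (0 at an unadjusted p under 0.05 and 0 by DESeq2). The shares of all families were 9.15% by edgeR, 26.8% at that unadjusted p and 24.8% by DESeq2. The other 2 tested members, miR-92 and miR-29 (log2 difference 0.37, SE 0.700), had a median log2 difference of 0.55, against 0.20 for all families. That median was not the highest among the lists. It was 1.06 for the neural, 0.43 for the gut and digestive gland, -0.04 for the epithelial and sensory and -0.24 for the muscle list. miR-92 was at 2450, 1859 and 2598 CPM in orange libraries against 1860, 1312 and 994 CPM in white libraries, so the groups overlapped by a narrow margin (log2 difference 0.73, SE 0.360, adjusted p = 0.233, edgeR). miR-29 was at 346, 58.9 and 108 CPM in orange libraries against 159, 125 and 113 CPM in white libraries, with no order between the groups. Without miR-34, the summed level of the list was 1918 to 2796 CPM in orange libraries and 1107 to 2019 CPM in white libraries. Its part in the result for miR-34 was not tested.

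In the other lists, 2 muscle, 4 neural, 4 epithelial and sensory and 4 gut and digestive gland families were tested. Of these, 0 passed the threshold by edgeR, against 9.15% of all families. At an unadjusted p under 0.05 (edgeR) there was 1, miR-375 of the gut and digestive gland list, against 26.8% of all families. DESeq2 called 2 of that list, miR-375 as higher and miR-216 as lower in orange muscle, in a test that called 24.8% of all families. All 3 muscle families had counts, with miR-206 at 1 to 7 counts in orange and 3 to 8 counts in white libraries, and the summed level was 293719 to 520883 CPM in orange libraries and 350118 to 509865 CPM in white libraries. The 5 epithelial and sensory families summed to 2535 to 4811 CPM in orange libraries and 1458 to 7520 CPM in white libraries. The 5 neural families summed to 348 to 1289 CPM in orange libraries and 436 to 550.4 CPM in white libraries. For both lists library 1 was the highest library of each group. Of the neural list, miR-124 was at 604, 13.0 and 11.8 CPM in orange libraries 1 to 3. The 6 gut and digestive gland families summed to 1198 to 2666 CPM in orange libraries and 2292 to 2984 CPM in white libraries. That sum was mostly miR-216, at 1170, 2612 and 1285 CPM in orange libraries 1 to 3, so it does not describe the list. The log2 differences of its tested members were 2.57 for miR-375, 1.52 for miR-194, -0.66 for miR-216 and -1.91 for miR-12. Of these lists, miR-219, miR-137, miR-122 and miR-283 were at 0 counts in at least 1 library. With TMM scaling, miR-34 was lowest of the orange libraries in library 1 and at 128 CPM in both white libraries 1 and 3. With library totals, white library 1 was the highest white library for miR-34 and orange library 2 the lowest orange one. In the fit of the libraries numbered 2 and 3 alone, the log2 difference of miR-34 was 0.72 (SE 0.360, adjusted p = 0.221, edgeR).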

How the data were processed

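Small RNAs of 6 libraries were analysed from 2 tables of 5446 miRNA names. The count table holds whole-number counts deposited by the authors with no normalization. Each deposited TPM value equalled the count per 1000000 of the column total within 5.00e-05, so TPM carries no length term and served only as this check. The sources used here do not name the adapter trimming, the aligner or the set of miRNA names, and the tables hold no sequences. A further 9 columns of the TPM table were not used. Columns were assigned by their letter and number, as described above.

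Many names held identical or nearly the same counts and were taken to repeat reads, which was not shown without sequences. The main unit was therefore 1 row per family (the name with the most counts over the 6 libraries), with predicted miRNAs kept single. Families were compared with edgeR 4.0.16 in R 4.3.3 (TMM, filterByExpr, robust glmQLFit, glmQLFTest), with an adjusted p under 0.05 as threshold. SE is the log2 difference divided by the square root of F. The same fit was run on distinct profiles, and DESeq2 1.42.0, other scalings, family sums, no filter, a replicate block and omitted libraries were alternatives. The procedure was run on simulated counts with 1 fixed dispersion and planted differences larger than that of miR-34. That run does not show whether a difference of the size of miR-34's would be found between these pools. The rule for named miRNAs took all miR-34 profiles, the 5 most and 3 least correlated families, the neighbours in level, the cluster and seed list and the marker lists. Members and lists were chosen with earlier results of these data known. Counts of replicates differed far beyond sampling noise. The labels do not say that pools are independent, so p-values measure the spread between these pools.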

Additional observations from a re-analysis of the deposited data

How the results depend on the processing

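The log2 difference of miR-34 stayed above 0 in all 13 alternatives, at 0.47 to 0.87, and 0 of these passed the threshold (adjusted p = 0.136 to 0.591). It was 0.54 to 0.87 when each library was left out in turn, and the lowest adjusted p came from sums over all names. The top profile kept its direction in its 12 alternatives, at 0.12 to 0.45 (0.12 to 0.25 without single libraries). The ratios of miR-34 to miR-133, miR-1 and miR-317 kept theirs in 9 each; without single libraries they differed by 0.54 to 1.02, 0.95 to 1.48 and 0.89 to 1.18. With so few libraries these tests could not pass 0.05. The number of families called, 13 of 142 with TMM, was 20 of 142 with library totals (8 higher, 12 lower) and 29 of 491 with no filter. By the DESeq2 test it was 33 of the 133 families with an adjusted p. It was 0 to 20 when each library was left out, with 0 of 157 without white replicate 2, 0 of 166 without white replicate 3 and 20 of 154 without white replicate 1. With DESeq2 size factors 3 were higher and 6 lower. Of the cluster and seed list, 1 passed by the DESeq2 test. With the replicate block the log2 difference of miR-34 was 0.73 (adjusted p = 0.311, edgeR), 12 families passed, and the ratio tests gave the same differences. Same-numbered libraries deviated together with r = 0.20, -0.02 and 0.16. Orange libraries 1 and 3 correlated best with the white library of the same number, and orange library 2 with white library 3 (r = 0.17). These correlations were weak, and whether the numbers pair the samples was not settled. The minor arm share was not computed, since no name carries that arm. Depth limits the low profiles, where a count of 0 allows up to 3 counts per library, or 0.750 to 1.43 CPM.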
